A study of Gossypium hirsutum with 2 samples.

Results

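The genes described here encode 3 calcineurin B-like calcium sensors (CBL1, CBL2 and CBL3), the protein kinase SOS2 and 2 annexins (AnnGh1 and Anx1). They were followed in leaves of field-grown Upland cotton, Gossypium hirsutum, cultivar Acala 1517-99, which the labels call drought tolerant. All probe sets that the array's annotation gives to exactly 1 gene carrying such an alias were taken, whatever their signal, which yielded 7 of the 23977 plant probe sets on the Affymetrix cotton array and 6 of the 520 genes that have a probe set of their own. CBL1 is read by 2 of them and every other gene by 1. A probe set is a group of short oligonucleotides that together give a single signal for a transcript.

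The drought group is 1 array of leaves from plots that received no furrow irrigation, and the well-watered group is 1 array of leaves from irrigated plots. Both groups are of the same cultivar, have a labelled age of 9 weeks, and were sampled at the third topmost leaf 9 days after water was withheld. The age given exceeds the interval from sowing to sampling in the labels' own dates. The labels name 3 field plots per treatment and 8 plants per replicate, and do not say whether RNA of the plots was pooled for the arrays. Since neither group has a second array, differences carry no p-value or SD over samples and describe these 2 arrays alone. In a whole leaf, a change in the number of cells that express a gene and a change in RNA per cell cannot be told apart.

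Calcium ions carry stress signals in plant cells. Calcineurin B-like proteins bind calcium through EF-hand motifs and then activate partner kinases of the CIPK family, to which SOS2 belongs. In Arabidopsis the best known pathway of this kind is the salt overly sensitive route, in which SOS2 with a calcineurin B-like partner activates a sodium/proton exchanger of the plasma membrane. Annexins bind membrane phospholipids in the presence of calcium and are found at the plasma membrane and in the cytosol. RNA levels do not report the calcium signal itself, nor the activity of any of these proteins.

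The values are MAS5 signals, the linear intensities that Affymetrix software computes for a probe set. Plant probe sets had a median signal of 78.3 on the drought array and 75.6 on the well-watered array. A probe set is called measurable below when its geometric mean signal over both arrays was at least 72.3, the median over plant probe sets, and 11989 were. The leaf marker RCA1, the rubisco activase gene, was among the brightest probe sets, with 20148 in drought leaves and 16617 in well-watered leaves, and markers of guard cells and phloem matched 0 named probe sets. The 27 hybridisation spike-ins, bacterial and phage transcripts added in known amount, were all brighter on the drought array, with a median log2 difference of 0.25. The ratio of 3-prime to 5-prime signal, which follows RNA quality, was 4.09 on the drought and 14.1 on the well-watered array for actin, and 10.2 on the drought and 5.80 on the well-watered array for ubq11. For ss1 it was 1.30 on the drought and 1.83 on the well-watered array, so 2 of the 3 controls were higher on the well-watered array. The part of RNA quality in the differences below was not tested.

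Of the 6 measurable probe sets of the calcium sensor, kinase and annexin genes, all 6 had a higher signal on the drought array. In the whole array 49.6% of measurable probe sets were higher on the drought array by any amount. CBL1 counted as measurable only through its drought signal, and both its signals lay in the range of the dim controls described below. The other 5 were at or above the median signal on both arrays, and all 5 were higher, beside 49.8% of the 10690 probe sets that met this stricter condition. Their log2 differences, drought minus well watered, ran from 0.05 to 0.54 with a median of 0.45, against a median of -0.00199 over those 10690. CBL3, AnnGh1 and Anx1 lay between 0.45 and 0.54, and CBL2 and SOS2 at 0.06 and 0.05.

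At 1.5-fold or more, 1 of the 6 measurable probe sets was higher (7.32% of measurable probe sets were) and 0 were lower (9.06% were). That 1 was CBL1, and with both arrays required at the median signal 0 of 5 were higher, beside 4.91%. At 2-fold or more, 0 of the 6 were higher and 0 lower, where the array gave 1.82% and 2.56%. With the dim probe set of CBL1 included, 7 of 7 were higher by any amount, where 51.7% of all plant probe sets were. When the spike-ins were set equal between the arrays, 4 of the 6 were higher, beside 24.2% of measurable probe sets.

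**Figure D1:**
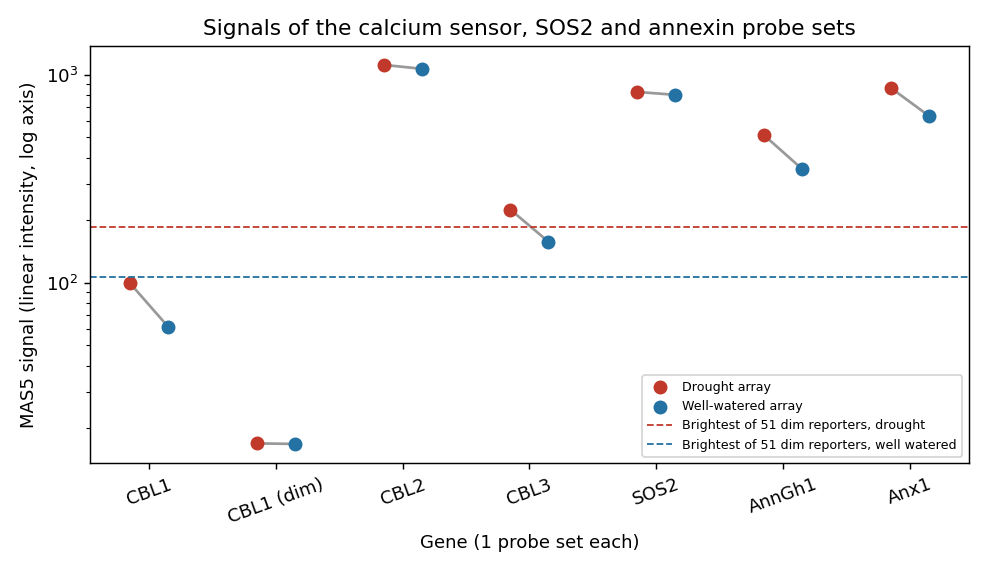
MAS5 signal (log axis) of the 7 probe sets on the drought array (red, left of each pair) and the well-watered array (blue, right), with 1 array per group and dashed lines at the brightest of the 51 dim reporter controls on each array (186 drought, 107 well watered). Both CBL1 probe sets lie under these lines, and the other 5 lie above them on both arrays.

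CBL1 and its relatives sense calcium at membranes. In Arabidopsis, CBL1 is anchored at the plasma membrane and takes part in responses to drought, salt and cold. The brighter probe set of cotton CBL1, Ghi.9163.2.S1_at at locus LOC107912199, gave 99.3 in drought leaves and 61.4 in well-watered leaves, a log2 difference of 0.69 (1.62-fold). It had the least signal of the measurable 6, and its well-watered signal was under the measurable minimum. Reporters are control probe sets for transgenes such as antibiotic resistance or marker proteins, and 51 of the 52 were dim here. Of these 51, 4 were at least as bright as CBL1 on the drought array and 6 on the well-watered array. The dim reporters themselves had a higher signal on the drought array in 36 of 51 cases, with a median log2 difference of 0.70, at median signals of 15.6 in drought and 11.4 in well-watered leaves. The CBL1 difference of 0.69 was close to this median of the dim controls, whose median signals were lower than the CBL1 signals. The plant probe sets nearest to CBL1 in mean signal had a median log2 difference of 0.04. Of these, 84.3% had a lower difference than CBL1. The part of background signal in the CBL1 difference was not tested.

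The other probe set of CBL1, Ghi.9163.1.S1_s_at, was far under the measurable minimum, with 16.9 in drought and 16.8 in well-watered leaves. Its signal was matched or passed by 25 of the 51 reporters on the drought array and by 22 on the well-watered array, so it held no level that could be told from background on either. Its log2 difference of 0.01 is therefore no second measurement of CBL1. With a pseudocount of 26.4 added to every signal, the brighter probe set gave 0.52 and was under 1.5-fold.

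CBL3 stood clear of the reporters. Arabidopsis CBL2 and CBL3 are closely related sensors of the vacuolar membrane that act in storing ions in the vacuole. Cotton CBL3 (Ghi.8132.1.S1_at, LOC107920820) measured 225 in drought leaves and 157.7 in well-watered leaves. The log2 difference was 0.51 (1.43-fold), and 0 of the 51 dim reporters reached it on either array. Among the 1000 plant probe sets nearest to it in mean signal, 91.3% had a lower difference. Those neighbours had a median of -0.06, with 10th and 90th percentiles of -0.60 and 0.48, so CBL3 lay just beyond the upper of these percentiles.

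CBL2 had nearly the same signal in both leaves. Its probe set (Ghi.8150.1.S1_at, LOC107922500) gave 1117 in drought and 1070 in well-watered leaves, a log2 difference of 0.06. It was brighter than 92.9% of plant probe sets on the drought array and than 92.7% on the well-watered array, and its neighbours in signal spanned -0.34 to 0.33 between their 10th and 90th percentiles. The gene table holds 2 loci with the alias CBL2, and 1 of them has a probe set annotated to it alone, so copies cannot be separated. The log2 differences of CBL3 and CBL2 were 0.45 apart, a gap with no replicate error to set it against.

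SOS2, the kinase, likewise had nearly equal signals in both leaves. Its probe set (GhiAffx.7102.1.S1_at, LOC107962610) measured 828 in drought leaves and 802 in well-watered leaves, a log2 difference of 0.05. Of the 1000 probe sets nearest in signal, 59.0% had a lower difference. The sign is not settled for this gene or for CBL2: set against the spike-ins, SOS2 gave -0.20 and CBL2 -0.18, and with each array centred on its median SOS2 gave -0.0046 while CBL2 stayed above 0 at 0.01.

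Both annexins had a higher signal in drought leaves. AnnGh1 (Ghi.4056.1.S1_s_at, LOC107905123) measured 514 in drought leaves and 353.5 in well-watered leaves, a log2 difference of 0.54 (1.45-fold). Anx1 (Ghi.8249.1.S1_s_at, LOC107913673) measured 867.9 in drought and 637 in well-watered leaves, a difference of 0.45 (1.36-fold). Cotton annexins are best known from fibres, the seed hairs, where they have been linked to callose synthase at the plasma membrane. Both loci also carry the alias annexin. Both probe sets end in _s_at, a suffix for probes shared by several similar transcripts, so each may read more than 1 annexin copy.

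Relative to probe sets of like signal, the annexins ranked highest of the 6 genes. Of the 1000 nearest in signal, 97.0% had a lower difference than AnnGh1 and 94.1% a lower difference than Anx1, against 84.3% for CBL1, 58.9% for CBL2 and 91.3% for CBL3. The 90th percentile of the neighbours was 0.86 for CBL1 and 0.35 for both annexins, so differences spread more widely among probe sets as dim as CBL1. These ranks describe the spread across probe sets on 2 arrays, and are no measure of replicate error.

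**Figure D2:**
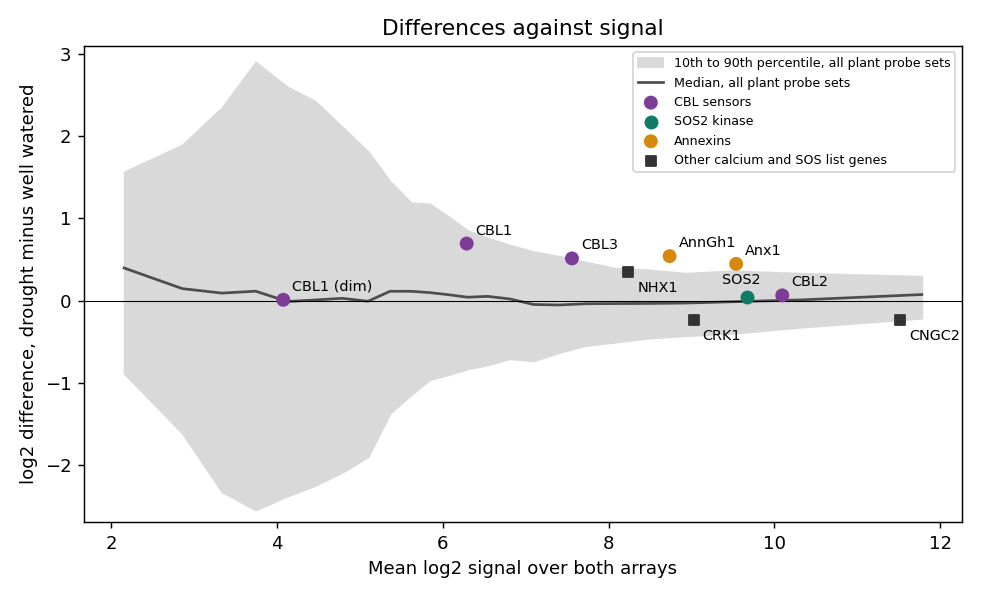
Log2 difference, drought minus well watered, against mean log2 signal over both arrays, for the 7 probe sets (circles), for 3 other genes of the calcium and SOS list (squares), and as median and 10th to 90th percentile of all 23977 plant probe sets in signal bins. AnnGh1 and Anx1 lie above the grey band, CBL3 lies at its upper edge, and both CBL1 probe sets, CBL2 and SOS2 lie inside it.

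Another scale for these sizes comes from genes that are read by more than 1 probe set. In 60 pairs of measurable probe sets assigned to the same gene, the log2 differences within a pair were apart by a median of 0.25. The SD per probe set was 0.27 in the 30 brighter pairs and 0.56 in the 30 dimmer pairs, and both members of a pair had the same sign in 34 of 60. The differences of AnnGh1, Anx1 and CBL3 were larger than the SD of the brighter pairs and smaller than that of the dimmer pairs. CBL1, the dimmest of the measurable 6, was larger than both at 0.69, and CBL2 and SOS2 were smaller than both. The signal that divides brighter from dimmer pairs is not given, so neither SD is assigned to a gene. CBL1, with a geometric mean signal of 78.1, lay close to the measurable minimum of 72.3 that bounds the dimmer pairs. In the 35 pairs whose IDs mark the same orientation, the SD per probe set was 0.46 and 17 of 35 had the same sign. Pairs can read different transcripts, so the spread may hold more than noise.

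A list of names linked to fibres and trichomes was set beside the annexins, since cotton annexins are known from fibres. Of 28 probe sets on that marker list, 14 were measurable. Among these 14, 8 were higher and 6 lower in drought leaves, where 49.6% of all measurable probe sets were higher. The 14 had a median log2 difference of 0.07. Their summed signal was 7926 on the drought array and 7534 on the well-watered array. Most probe sets of the list, and most of this sum, were matched by the gene family names FLA and EXPA alone. The counts and the sum are therefore no measure of fibre or trichome cells. The fibre gene E6 measured 92.3 in drought and 216 in well-watered leaves (-1.23). Its drought signal was under the brightest dim reporter of that array, at 186. The trichome regulator GHTTG1 measured 447 in drought and 341 in well-watered leaves (0.39). The part of fibre-like cells in the annexin signals was not tested.

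Other genes of calcium and sodium signalling were sought with a list of 40 alias stems, covering CIPK kinases, calmodulins, calcium-dependent kinases, calcium channels and pumps, and sodium and potassium transporters. Outside the 6 genes it matched 3 probe sets, all measurable, of which 1 was higher and 2 lower in drought leaves. Of all measurable probe sets, 49.6% were higher. All 3 end in _s_at, so each may read more than 1 transcript. NHX1, the vacuolar sodium/proton exchanger, which SOS2 is known to regulate in Arabidopsis, measured 341 in drought and 267.5 in well-watered leaves (log2 difference 0.35). CNGC2, a cyclic nucleotide-gated ion channel that admits calcium in Arabidopsis, measured 2694 in drought and 3186 in well-watered leaves (-0.24). CRK1, an alias used both for a calcium-dependent kinase relative and for a receptor-like kinase, measured 480.4 in drought and 565 in well-watered leaves (-0.23). The named genes are a small part of the array, with 324 probe sets that carry an alias other than a locus number, so further calcium genes may be present without a name.

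Genes with the most similar pair of signals were taken from 147 measurable named genes, by distance in mean log2 signal and log2 difference over the 2 arrays. The nearest to CBL1 was BNLGHi8377, with 98.1 in drought and 70.3 in well-watered leaves (0.48), followed by the peroxidase gene pod7 (0.99). The nearest to CBL3 was GalT1, with 193 in drought and 139 in well-watered leaves (0.47). NAC4, a transcription factor gene, came next to CBL3 (0.59). For AnnGh1 the nearest were GHTTG1 and GEPH (0.45), and for Anx1 they were Aux4 (0.29) and the small GTPase gene Rab7 (0.51). CBL2 lay nearest to KAS2-1 of fatty acid synthesis (0.12) and the sterol methyltransferase gene SMT2-1 (0.09), and SOS2 nearest to the arabinogalactan protein gene FLA12 (0.01) and the chalcone synthase gene CHS3 (-0.05). Likeness over 2 arrays amounts to a pair of numbers per gene.

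**Figure D3:**
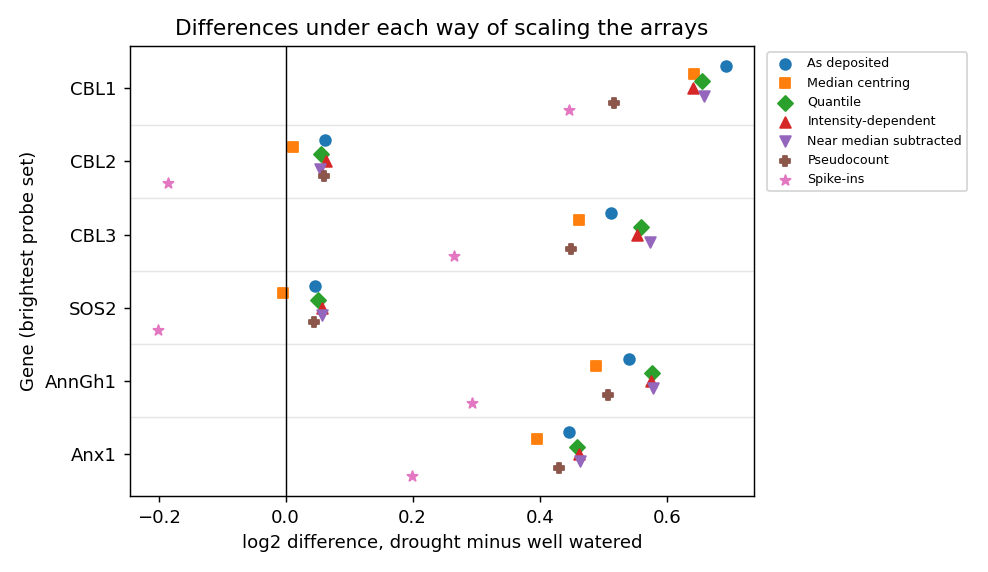
Log2 difference, drought minus well watered, of the brightest probe set of each gene under the scaling as deposited and 6 alternatives (marker shape and colour). CBL1, CBL3, AnnGh1 and Anx1 stay above 0 under all of them, at 0.20 or more, while CBL2 and SOS2 cross 0.

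None of the 7 probe sets stands in the authors' deposited list of 110 differing probe sets, whose rule of choice is not stated. The signals in the authors' deposited list are not those of the value table used above: 0 of 110 were equal on either array, and the median absolute log2 gap was 0.30 on the drought array and 0.12 on the well-watered array. How they were made is not stated. By the list's own signals the smallest log2 difference in it was 0.73 in size. CBL1, with the largest difference of the 7, had 0.69 in the value table. In the value table, 9 of the 110 listed probe sets differed by less than CBL1. Detection calls come with the list alone. In the authors' deposited list, probe sets called present had signals down to 56.2 on the drought array and 43.6 on the well-watered array, while those called absent reached 235 on the drought array and 90.2 on the well-watered array. Absent calls in the list numbered 56 on the drought array and 6 on the well-watered array, all among probe sets listed as differing. Absent probe sets outside the list may be brighter. For this reason and because of the mismatch, these limits are only a rough guide to the value table. The CBL1 signals, 99.3 in drought and 61.4 in well-watered leaves, lie between them on both arrays. CBL3, at 225 in drought leaves, is under the highest absent call of 235 but too near it to be placed, given the mismatch. On the well-watered array CBL3, at 157.7, lies above the highest absent call. CBL2, SOS2, AnnGh1 and Anx1 lie above the highest absent call on both arrays.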

How the data were processed

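Leaf RNA of 1 drought and 1 well-watered sample was hybridised to Affymetrix cotton arrays; per the labels, biotinylated cRNA was made from 5.0 µg total RNA. Intensity values were deposited as MAS5 signals on a linear scale. The submitters' processing notes name GCOS and MAS5 without a version. The deposited p-value in the smaller list is a detection p of 1 probe set on 1 array, per the file headers. Groups follow the sample titles.

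Differences are log2 of the drought over the well-watered signal as deposited, with no pseudocount. Control probe sets (155) were left out, and differences were counted at 1.5-fold and 2-fold. No test was run, since each group has 1 array, whose number limits the precision. Names came from the platform annotation and, by gene identifier, a gene table of Gossypium_hirsutum_v2.1: 697 probe sets had a single gene, 46 several and 23234 none, and all 697 were found; the table used here has no descriptions. The array files name no genome build, so no coordinates are given. All probe sets of the 6 genes are named, with those matched by the pathway list and the 2 nearest named genes of each. Members and lists were chosen with earlier results of these data known. The calculations were tested on simulated data. Alternatives were median centring, quantile normalization, lowess centring (span 0.3), spike-in scaling, a pseudocount, averaging probe sets of a gene, other filters and leaving out shared probe sets. Python 3.11.15, numpy 2.4.6, pandas 2.3.3 and statsmodels 0.14.6 were used.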

Additional observations from a re-analysis of the deposited data

How the results depend on the processing

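Under 6 scaling and pseudocount alternatives, the log2 difference of CBL1, drought minus well watered, ranged from 0.45 to 0.66. That of CBL3 ranged from 0.27 to 0.57, of AnnGh1 from 0.29 to 0.58 and of Anx1 from 0.20 to 0.46. Averaging both CBL1 probe sets, of which the dimmer could not be told from background, gave 0.35. Scaling to the spike-ins, which lowers every value by 0.25, reversed CBL2 (-0.18), SOS2 (-0.20) and the dim CBL1 probe set (-0.24). Median centring reversed SOS2 (-0.0046) and that CBL1 probe set (-0.042), and intensity-dependent centring reversed that CBL1 probe set (-0.028). Measurable probe sets higher in drought leaves numbered 5 of 6 after median centring (43.9% of all measurable probe sets), 4 of 6 against the spike-ins (24.2%) and 7 of 7 with no filter on signal (51.7% of all plant probe sets). CBL1 alone made up the count at 1.5-fold or more, which was 1 as deposited (7.32% of measurable probe sets). That count was 0 of 4 with the filter at the 75th percentile, beside 2.45% of all probe sets left. With both arrays required at the median signal it was 0 of 5, beside 4.91%. With no filter on signal it was 1 of 7, beside 20.9% of all plant probe sets. Leaving out probe sets ending in _s_at or _x_at gave 1 of 4, beside 8.33%. CBL1 itself was under 1.5-fold against the spike-ins (0.45) and with the pseudocount (0.52). It stayed past 1.5-fold after median centring (0.64), quantile normalization (0.66) and intensity-dependent centring (0.64). No share over the array at 1.5-fold is given for these scalings, so no count is compared there. Without probe sets ending in _s_at or _x_at, 4 of 4 were higher, beside 50.6% of all measurable probe sets left, and the pathway list had no probe set left. Subtracting the median of near probe sets, and ranking among 500 or 2000 of them, were chosen after seeing the data. With 500 and 2000 near probe sets, the share with a lower difference was 83.0 and 83.4% for CBL1 and 96.4 and 96.5% for AnnGh1. No paired analysis was possible because each group has 1 array. Signals near those of the reporters limit CBL1 most.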
